A study of Mus musculus with 6 samples.

Results

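Nucleoporins and the receptors that carry cargo through the nuclear pore were followed in B16F10 cells, an established mouse melanoma line, after treatment with an extract of Polianthes tuberosa L. The genes were the protein-coding identifiers of the deposited count table whose GENCODE M21 symbol begins with Nup and a digit, Kpna, Kpnb, Ipo and a digit, Xpo or Tnpo. That rule used names and no measured value, and it found 43 of the 27067 genes in the table, 20 of them nucleoporins and 23 transport receptors or adaptors. RNA sequencing of polyadenylated RNA had been done in 6 libraries, 3 from extract-treated B16F10 cells and 3 from control B16F10 cells. The labels give no genotype change, transgene or other agent for either group, and they leave the dose, the exposure time and any solvent given to the controls unstated. They do not state that replicates were separate cultures, so every p-value below reflects spread among these libraries, which may be technical. In bulk RNA, fewer cells expressing a gene and less of its RNA per cell cannot be told apart.

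The nuclear pore complex is the channel through which proteins and RNA move between nucleus and cytoplasm. Its scaffold consists of outer and inner rings, its centre is filled with nucleoporins rich in phenylalanine-glycine repeats, and filaments and a basket extend from its faces. Importins bind cargo in the cytoplasm and release it in the nucleus on binding the GTPase Ran in its GTP form, while exportins bind cargo together with Ran-GTP and release it outside. Adaptors of the importin alpha type link cargo with a classical nuclear localisation signal to importin beta. The complex disassembles in mitosis and new pores are inserted during interphase.

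Most of these genes were lower in treated cells, each by a modest amount. Of the 43 genes, 42 passed the filter on low counts and were tested, 36 of them were lower, 2 were higher and 4 did not pass (edgeR quasi-likelihood test, Benjamini-Hochberg adjusted p under 0.05 over all tested genes). Across all 15150 tested genes 53.0% passed, with 27.9% lower and 25.1% higher, which is 4223 and 3809 genes, or 3045 lower and 5069 higher when libraries were scaled by their totals. With library totals 31 members were lower, and 27 were with level-dependent offsets. Such offsets fit the difference between libraries along expression level and so also remove shifts shared by genes of like level. With them 3812 of all 15150 tested genes, or 25.2%, were lower and 3875 were higher. Background shares vary with level, and among protein-coding genes averaging 10 CPM or more 41.9% were lower, and 41 of the 42 tested members reach that level. CPM are counts scaled to a common library total with TMM factors. The median log2 fold change, treated over control, was -0.29 among the members and 0.0068 among all tested genes, whose quartiles were -0.20 and 0.27. In 37 of the 42 members all 3 treated libraries lay below all 3 control libraries, as they did for 30.3% of all tested genes. The groups did not overlap, in either direction, in 38 members and in 58.7% of all tested genes. These backgrounds also vary with level. Among the 9097 protein-coding genes averaging 10 CPM or more, the median log2 fold change was -0.055. In 3997 of these 9097 genes all treated libraries lay below all controls, and in 6507 the groups did not overlap in either direction. The summed level of the members was 6897 ± 60.9 CPM in treated and 8389 ± 36.5 CPM in control libraries (SD, n = 3 each), which is 17.8% less.

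**Figure D1:**
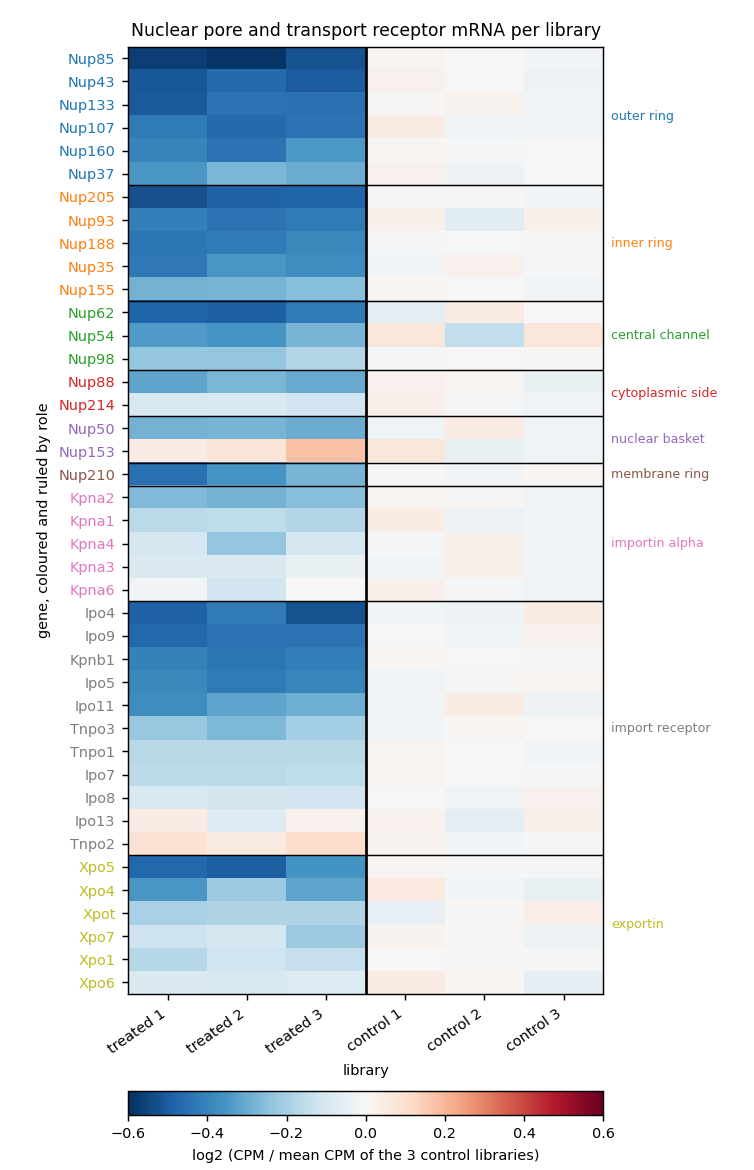
Colour shows log2 of CPM over the mean of the 3 control libraries for each tested member except Nup210l, whose counts are too low for the colour scale; columns are the 3 treated and the 3 control libraries, and rows are ruled by role. The treated columns are blue in nearly every row, and Nup153 and Tnpo2 are the 2 members called higher.

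Among the 36 members that fell, the mean CPM was between 5.79% and 32.1% below control, with a median of 19.6%. Replicates were close together, with a median coefficient of variation of 1.89% in treated and 1.78% in control libraries. Nucleoporins had a median log2 fold change of -0.37, with 18 of 20 lower and 1 higher, and transport receptors one of -0.16, with 18 of 22 lower and 1 higher. The difference between these medians was not tested. Over the 42 members the signed log2 fold change and the mean CPM had a Spearman's rho of 0.050, across genes that share the same libraries. Genes of cell division moved in the same libraries: 24 of 30 S phase genes were lower and 1 higher, with a summed level of 4329 to 4462 CPM in treated and 5868 to 5937 CPM in control libraries. Of 30 mitotic genes 28 were lower, with sums of 4492 to 4663 CPM in treated and 5507 to 5543 CPM in control libraries. The shares lower were 80% for S phase and 93.3% for mitosis. They were 27.9% for all tested genes and 41.9% for protein-coding genes averaging 10 CPM or more. Both lists were counted with TMM factors only. Among the S phase genes, Tyms, which makes thymidylate, fell by 0.77 on the log2 scale, the polymerase gene Pole by 0.63, Tk1 by 0.63, the helicase genes Mcm5, Mcm6 and Mcm2 by 0.62, 0.60 and 0.52, and the ribonucleotide reductase gene Rrm2 by 0.56. Among the mitotic genes, the kinase genes Plk1 and Aurkb fell by 0.49 and 0.44, the kinetochore gene Ndc80 by 0.45, Birc5 by 0.44 and the topoisomerase gene Top2a by 0.44. The part of cell division in the fall of the pore genes was not tested.

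**Figure D2:**
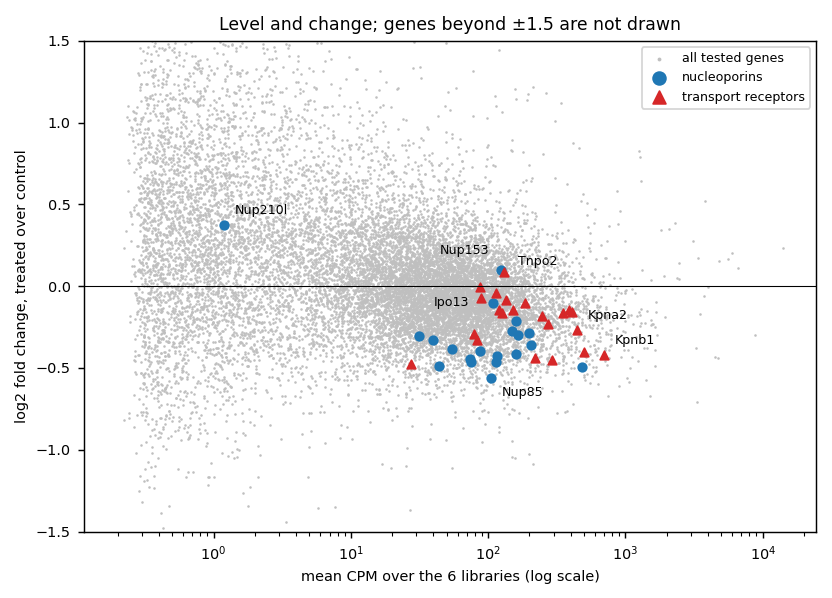
Each point is a gene, with its mean CPM over the 6 libraries on a log axis and its log2 fold change, treated over control, on the vertical axis; grey points are all tested genes, of which 213 lie beyond 1.5 in size and are not drawn. Nucleoporins and transport receptors, other than the low Nup210l, lie at moderate to high levels and mostly below 0.

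The libraries held 31183728 to 33717357 counts in the treated group and 31991473 to 40129044 counts in the control group. Correlations of log2 CPM were 0.993 to 0.994 within groups and 0.985 to 0.986 across them, and no library stood apart. All 8 pigment cell markers were detected, with summed levels of 14387 to 15245 CPM in treated and 17383 to 17989 CPM in control libraries. Markers of 4 other cell types were low. The sum over 6 fibroblast genes with a row in the table was 30.3 to 31.2 CPM in treated and 19.9 to 25.2 CPM in control libraries. That over 6 immune genes was 8.81 to 9.76 CPM in treated and 3.93 to 4.46 CPM in control libraries, with Cd68 at 7.56 ± 0.415 CPM in treated and 3.25 ± 0.120 CPM in control libraries, and the pan-leukocyte gene Ptprc and the macrophage gene Itgam were at 0 in every control library and had 2 counts each in the treated group. That over 5 endothelial genes was 3.23 to 3.98 CPM in treated and 1.31 to 2.12 CPM in control libraries, with Kdr and Cdh5 at 0 in every control library and 2 counts each in the treated group. That over 3 keratinocyte genes was 0.439 to 0.519 CPM in treated and 0.708 to 1.07 CPM in control libraries, with Krt5 at 0 in every treated library and Krt14 at 0 in every control library. The part of these marker levels in the results below was not tested.

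The sequence at the members' starts was compared with that of other genes. RefSeq (GRCm38.p6) windows of 300 bases, from 250 before to 50 after a start, matched 33 of the 42 tested members by symbol and gave 40 windows. The median GC content was 65.0% in these windows and 60.7% in the 13159 windows of tested genes. The CCAAT box (CCAAT, both strands) was in 52.5% of the members' windows, against 37.8% of those of tested genes and 37.4% of all 32851 windows. The GC box (GGGCGG) was in 65.0% of the members' windows, against 61.4% and 35.7%. The NRF1 motif (GCGCA, any base, GCGC) was in 15%, against 9.69% and 4.6%, the ETS motif (CCGGAAG) in 17.5%, against 17.3% and 8.86%, and the E-box (CACGTG) in 17.5%, against 9.83% and 7.15%. Any of 4 E2F motifs (TTTCGCGC, TTTGGCGC, TTTCCCGC or TTTGCCGC) was in 5%, against 3.85% and 2.26%, and the CHR element (TTTGAA) of cell cycle genes in 17.5%, against 12.1% and 17.9%. All motifs were searched on both strands; no motif contains another, though matches may overlap. Windows of the same gene can overlap, so that a start may count more than once. Those of Ipo9 start at 135430442 and 135430450, and both held the CCAAT box, the GC box and the NRF1 motif. These were in 21, 26 and 6 of the 40 windows. Those of Nup37, at 88146742 and 88146821, both held the CCAAT box, the ETS motif and the CHR element. These are counts of letters and no test was made.

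Windows of the 3 matched members with the largest falls and of both members that rose are shown, on the strand of the gene, so that the starts of genes that moved in opposite directions can be compared. Capitals mark matches to any of the motifs above on either strand. The coordinates are chr6:35177366-35177665, plus strand for Nup205, chr14:55635635-55635934, minus strand for Ipo4, chr8:123949216-123949515, minus strand for Nup133, chr13:46727800-46728099, minus strand for Nup153 and chr8:85036643-85036942, plus strand for Tnpo2, which has a further window.
Nup205: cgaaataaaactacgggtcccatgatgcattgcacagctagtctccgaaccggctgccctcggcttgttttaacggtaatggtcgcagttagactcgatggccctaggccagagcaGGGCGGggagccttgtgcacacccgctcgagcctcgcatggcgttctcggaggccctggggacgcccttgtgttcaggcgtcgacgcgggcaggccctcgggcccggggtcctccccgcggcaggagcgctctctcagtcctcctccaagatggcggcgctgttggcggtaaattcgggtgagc
Ipo4: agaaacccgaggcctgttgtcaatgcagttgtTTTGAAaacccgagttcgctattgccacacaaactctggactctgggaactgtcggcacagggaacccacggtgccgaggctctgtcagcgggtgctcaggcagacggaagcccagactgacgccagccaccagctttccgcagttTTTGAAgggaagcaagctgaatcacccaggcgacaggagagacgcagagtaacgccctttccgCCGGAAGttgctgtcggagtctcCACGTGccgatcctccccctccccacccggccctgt
Nup133: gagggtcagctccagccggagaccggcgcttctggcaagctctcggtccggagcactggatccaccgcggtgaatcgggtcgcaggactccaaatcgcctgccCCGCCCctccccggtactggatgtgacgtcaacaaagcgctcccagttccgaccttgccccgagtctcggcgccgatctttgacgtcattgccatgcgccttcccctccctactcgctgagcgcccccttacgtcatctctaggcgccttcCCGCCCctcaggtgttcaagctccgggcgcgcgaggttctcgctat
Nup153: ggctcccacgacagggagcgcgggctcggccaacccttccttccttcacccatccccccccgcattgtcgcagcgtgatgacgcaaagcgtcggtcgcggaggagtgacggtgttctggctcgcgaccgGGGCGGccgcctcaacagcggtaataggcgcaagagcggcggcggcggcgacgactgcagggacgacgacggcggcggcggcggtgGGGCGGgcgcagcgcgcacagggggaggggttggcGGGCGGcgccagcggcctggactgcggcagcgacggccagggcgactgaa
Tnpo2: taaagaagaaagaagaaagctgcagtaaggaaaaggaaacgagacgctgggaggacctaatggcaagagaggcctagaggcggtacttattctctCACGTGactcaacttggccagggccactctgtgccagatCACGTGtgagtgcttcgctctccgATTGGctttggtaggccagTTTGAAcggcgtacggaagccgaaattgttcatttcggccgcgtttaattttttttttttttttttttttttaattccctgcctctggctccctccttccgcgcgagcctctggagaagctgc
Nup205 held 1 GC box, Nup133 held 2 and Nup153 held 3. Ipo4 held no GC box and 2 CHR elements, 1 ETS motif and 1 E-box. The window of Tnpo2 shown held 1 CCAAT box, 2 E-boxes and 1 CHR element and no GC box, while its further window, with a GC content of 76.0% against 49.3%, held a GC box and none of the other motifs. GC boxes thus stood at both genes called higher and at Nup205 and Nup133, which fell.

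The outer ring, or Y complex, which coats both faces of the pore, was lower throughout. All 6 members placed in it were lower, with a median log2 fold change of -0.45. Their summed level per kilobase of exon was 81.4 ± 0.860 CPM per kb in treated and 113 ± 1.65 CPM per kb in control libraries. Nup98, which also encodes an outer ring protein, was placed in the central channel and fell by less, at -0.21. The Y complex genes Sec13 and Seh1l, outside the naming rule, had log2 fold changes of -0.32 and -0.29. Nup85 (ENSMUSG00000020739), a Y complex arm protein, measured 84.4, 83.0 and 86.8 CPM in treated libraries 1 to 3, against 126, 125 and 123 CPM in control libraries 1 to 3. Treated libraries lay well below the controls, and this was the largest change of any called member (log2 fold change -0.56 ± 0.029, edgeR adjusted p = 2.19e-13, 32.1% less, where ± is SE for log2 fold changes and SD for CPM). Nup43 (ENSMUSG00000040034), which sits on the same arm, measured 36.2, 37.3 and 36.5 CPM in treated libraries 1 to 3, against 52.4, 51.6 and 50.3 CPM in control libraries 1 to 3. Nup133 (ENSMUSG00000039509), at the tip of the stem, measured 60.9, 63.5 and 63.4 CPM in treated libraries 1 to 3, against 86.8, 87.6 and 84.8 CPM in control libraries 1 to 3. Nup107 (ENSMUSG00000052798), its partner in the stem, measured 63.0, 61.1 and 62.0 CPM in treated libraries 1 to 3, against 87.2, 82.8 and 83.3 CPM in control libraries 1 to 3. In these 3 genes the groups were apart in every library, with log2 fold changes of -0.49, -0.46 and -0.45 (edgeR adjusted p = 9.79e-10, 6.87e-11 and 1.98e-10). Nup160 (ENSMUSG00000051329), another arm protein, measured 75.6, 73.5 and 78.6 CPM in treated libraries 1 to 3, against 101, 99.3 and 99.6 CPM in control libraries 1 to 3. Nup37 (ENSMUSG00000035351), which binds Nup160, measured 27.0, 28.5 and 28.0 CPM in treated libraries 1 to 3, against 35.1, 33.7 and 34.5 CPM in control libraries 1 to 3. Both fell, by 0.40 and 0.31 on the log2 scale (edgeR adjusted p = 4.58e-10 and 3.03e-05), and neither overlapped between groups.

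All 5 inner ring genes fell as well, with a median log2 fold change of -0.41 and a summed level of 114 ± 1.34 CPM per kb in treated and 153 ± 0.736 CPM per kb in control libraries. Nup205 (ENSMUSG00000038759), a large scaffold protein, was the most abundant nucleoporin mRNA per length and measured 393, 404 and 406 CPM in treated libraries 1 to 3, against 569, 569 and 559 CPM in control libraries 1 to 3 (log2 fold change -0.50 ± 0.021, edgeR adjusted p = 6.35e-15). Its paralogue Nup188 (ENSMUSG00000052533) measured 134, 135 and 138 CPM in treated libraries 1 to 3, against 181, 181 and 182 CPM in control libraries 1 to 3 (log2 fold change -0.41 ± 0.026, edgeR adjusted p = 5.24e-12). Their mean CPM were 29.1% and 24.97% below control, and neither overlapped between groups. Nup93 (ENSMUSG00000032939), the linker that holds the inner ring together, measured 100.3, 98.1 and 99.5 CPM in treated libraries 1 to 3, against 136, 128 and 136 CPM in control libraries 1 to 3 (log2 fold change -0.43 ± 0.030, edgeR adjusted p = 3.67e-11). Nup35 (ENSMUSG00000026999), which contacts the membrane, measured 46.2, 48.9 and 48.0 CPM in treated libraries 1 to 3, against 61.5, 63.4 and 61.8 CPM in control libraries 1 to 3 (log2 fold change -0.38 ± 0.039, edgeR adjusted p = 1.55e-08). Both were lower in every treated library than in any control, as was Nup155, which also binds the membrane and fell by 0.27 on the log2 scale (edgeR adjusted p = 6.17e-09, or -0.17 with level-dependent offsets). Nup35 shares 3.89% of its exonic bases with Dusp19.

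The phenylalanine-glycine nucleoporins of the central channel fell together. Nup62 (ENSMUSG00000109511), the core of the channel, measured 95.1, 94.7 and 99.1 CPM in treated libraries 1 to 3, against 128, 137 and 133 CPM in control libraries 1 to 3 (log2 fold change -0.46 ± 0.031, edgeR adjusted p = 1.62e-11). Nup54 (ENSMUSG00000034826), which forms a trimer with Nup62, measured 34.96, 34.6 and 36.5 CPM in treated libraries 1 to 3, against 46.4, 39.99 and 46.5 CPM in control libraries 1 to 3 (log2 fold change -0.33 ± 0.054, edgeR adjusted p = 1.84e-05). Control library 2 was lower than the other controls for Nup54, but still above every treated library. Nup98 (ENSMUSG00000063550), whose gene encodes both the channel protein Nup98 and the outer ring protein Nup96, fell by 0.21 on the log2 scale, or by 0.11 with level-dependent offsets (edgeR adjusted p = 4.04e-07 and 0.00143). Nup62 shares 2.87% of its exonic bases with Atf5 on the other strand. It shares 3.40% with Il4i1 on the same strand, which had a mean of 14 reads.

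The remaining pore genes were less uniform. On the cytoplasmic side, Nup88 fell by 0.30 on the log2 scale (edgeR adjusted p = 3.07e-09, or -0.19 with level-dependent offsets), and its partner Nup214, which docks export complexes, fell by 0.10 (edgeR adjusted p = 0.00432). The call for Nup214 was lost under library totals and under level-dependent offsets (edgeR adjusted p = 0.512 and 0.726). Nup210 (ENSMUSG00000030091), a membrane-spanning ring protein, measured 171, 182 and 191 CPM in treated libraries 1 to 3, against 233, 229.7 and 234 CPM in control libraries 1 to 3 (log2 fold change -0.36 ± 0.032, edgeR adjusted p = 1.83e-09). Its paralogue Nup210l averaged 1.35 ± 0.170 CPM in treated and 1.04 ± 0.333 CPM in control libraries, and did not pass (log2 fold change 0.37 ± 0.27, edgeR adjusted p = 0.268). The 2 nuclear basket genes among the members were split, with Nup50, a cofactor of importin alpha, lower by 0.29 (edgeR adjusted p = 4.24e-09, or -0.17 with level-dependent offsets) and Nup153, the basket's anchor, slightly higher. The basket gene Tpr, which the naming rule leaves out, fell by 0.12 on the log2 scale with TMM factors (edgeR adjusted p = 1.21e-04). Tpr averaged 342 CPM in treated and 372 CPM in control libraries and was not followed under other scalings. Ipo7, Tnpo1 and Xpo1, members of like level, did not pass with level-dependent offsets. Nup153 (ENSMUSG00000021374) measured 125, 127 and 136 CPM in treated libraries 1 to 3, against 126, 117 and 118 CPM in control libraries 1 to 3. The groups overlapped, since treated library 1 lay below control library 1, and the change was small (log2 fold change 0.10 ± 0.034, edgeR adjusted p = 0.0173). It did not pass without treated replicate 3, control replicate 2 or control replicate 3 (edgeR adjusted p = 0.177, 0.106 and 0.0699), and was larger under library totals and level-dependent offsets (0.18 and 0.19); without treated replicate 3 the log2 fold change was 0.058.

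**Figure D3:**
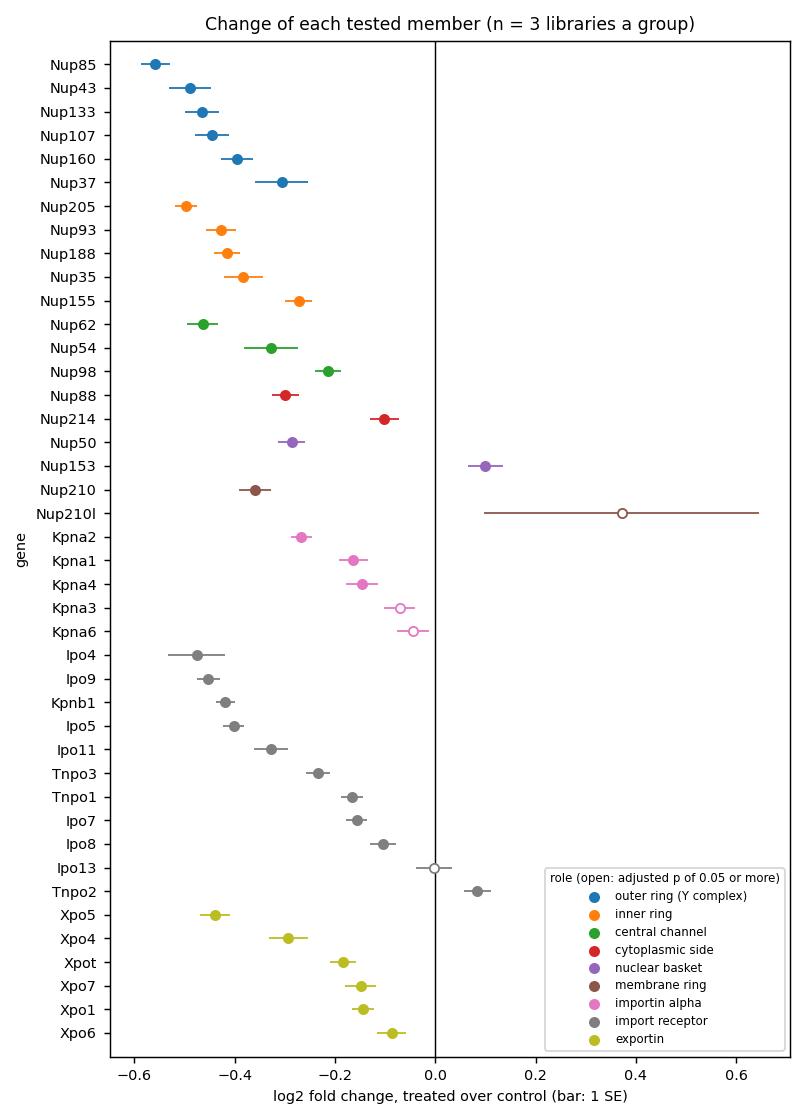
Points are log2 fold changes, treated over control, of the 42 tested members, grouped by role, with bars of 1 SE from 3 libraries a group; open points did not pass the test. Members placed in the outer and inner rings lie between -0.56 and -0.27, while exportins and importin alpha genes lie mostly nearer to 0. Nup98 is drawn with the central channel.

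Importin alpha adaptors had a median log2 fold change of -0.15. Of 6 genes, 3 were lower, 2 did not pass and Kpna7, an egg and embryo form, was not tested, with 2 counts in treated library 1 and 0 in every other library. Kpna2 (ENSMUSG00000018362), the form typical of dividing cells, had the highest level per length of all members and measured 405, 400.4 and 408 CPM in treated libraries 1 to 3, against 491, 489 and 479.9 CPM in control libraries 1 to 3 (log2 fold change -0.27 ± 0.021, edgeR adjusted p = 2.66e-10). Kpna1 (ENSMUSG00000022905) measured 119, 119 and 118 CPM in treated libraries 1 to 3, against 137, 129.7 and 131 CPM in control libraries 1 to 3 (log2 fold change -0.16 ± 0.028, edgeR adjusted p = 3.58e-05). Kpna4 (ENSMUSG00000027782) measured 148, 135 and 147 CPM in treated libraries 1 to 3, against 157, 162 and 157 CPM in control libraries 1 to 3 (log2 fold change -0.15 ± 0.032, edgeR adjusted p = 5.21e-04). These 3 genes were lower in every treated library than in any control. With level-dependent offsets their log2 fold changes were -0.13, -0.068 and -0.042, and Kpna4 no longer passed, nor did it with library totals (edgeR adjusted p = 0.282 and 0.0765). Kpna3 (ENSMUSG00000021929) measured 86.1, 86.1 and 88.8 CPM in treated libraries 1 to 3, against 90.4, 93.4 and 90.5 CPM in control libraries 1 to 3. Kpna6 (ENSMUSG00000003731) measured 114, 107 and 116 CPM in treated libraries 1 to 3, against 118, 115 and 114 CPM in control libraries 1 to 3. Neither passed (edgeR adjusted p = 0.0594 and 0.254), and the signs of both turned under library totals and level-dependent offsets. Kpna3 passed as lower with no filter and without treated replicate 3 (edgeR adjusted p = 0.0474 and 0.0373).

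Kpna2 took a slightly smaller share of the importin alpha pool in treated cells. Kpna2 made up 67.6%, 68.2% and 67.6% of importin alpha CPM per kilobase in treated libraries 1 to 3, against 70.3%, 70.2% and 70.2% in control libraries 1 to 3. Kpna3 made up 9.75 ± 0.122% in treated and 8.82 ± 0.169% in control libraries (SD, n = 3 each), and Kpna6 made up 8.03 ± 0.231% in treated and 7.13 ± 0.0846% in control libraries. These shares do not depend on any single scaling factor per library, though they would change with level-dependent offsets. They are given with no test.

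**Figure D4:**
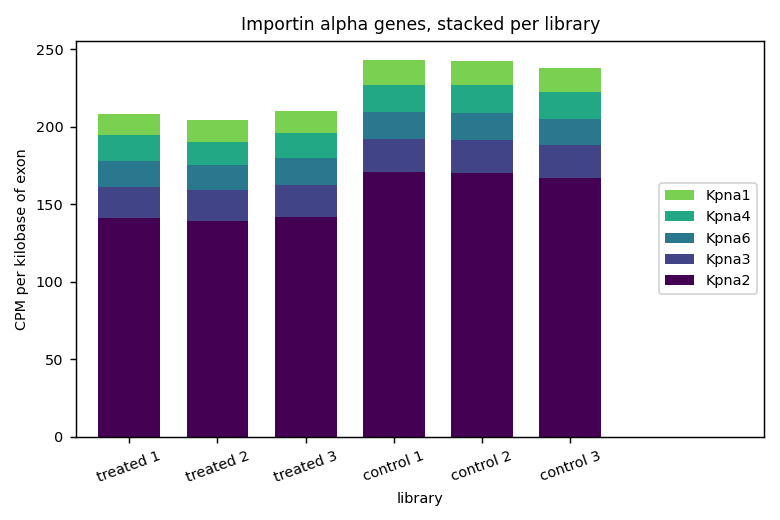
Bars stack the CPM per kilobase of exon of the 5 tested importin alpha genes in each of the 3 treated and 3 control libraries. Kpna2 fills more than the other 4 genes together in every bar, and the treated bars are shorter, averaging 208 CPM per kb against 241 CPM per kb in control libraries.

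Import receptors of the importin beta family ranged from clear falls to no change, with 9 of 11 lower, 1 higher and 1 not passing. Kpnb1 (ENSMUSG00000001440), importin beta itself, measured 599, 588 and 594 CPM in treated libraries 1 to 3, against 800.0, 792 and 788 CPM in control libraries 1 to 3 (log2 fold change -0.42 ± 0.019, edgeR adjusted p = 1.34e-14). Ipo5 (ENSMUSG00000030662), which imports histones and ribosomal proteins, measured 438, 427 and 435 CPM in treated libraries 1 to 3, against 564, 575 and 578 CPM in control libraries 1 to 3 (log2 fold change -0.40 ± 0.021, edgeR adjusted p = 2.02e-13). Both stood far apart between groups, and with level-dependent offsets their log2 fold changes were smaller, at -0.26 and -0.26. Ipo9 (ENSMUSG00000041879), a carrier of histones, measured 242, 247 and 247 CPM in treated libraries 1 to 3, against 335, 329.6 and 341 CPM in control libraries 1 to 3 (log2 fold change -0.45 ± 0.024, edgeR adjusted p = 2.58e-13). Ipo4 (ENSMUSG00000002319), also a histone carrier, measured 22.9, 23.9 and 22.3 CPM in treated libraries 1 to 3, against 31.7, 31.4 and 33.1 CPM in control libraries 1 to 3 (log2 fold change -0.48 ± 0.057, edgeR adjusted p = 2.20e-07). Ipo11 (ENSMUSG00000042590) measured 71.3, 74.3 and 75.3 CPM in treated libraries 1 to 3, against 91.4, 95.3 and 90.4 CPM in control libraries 1 to 3 (log2 fold change -0.33 ± 0.034, edgeR adjusted p = 2.17e-08). In all 3 the groups did not overlap, and Ipo4 shares 55.3% of its exonic bases with the overlapping gene Gm49378, so that its count is uncertain. Tnpo3, which imports splicing factors rich in serine and arginine, fell by 0.23, or by 0.11 with level-dependent offsets. Ipo7, Ipo8 and the transportin gene Tnpo1 fell by 0.16, 0.10 and 0.17 (edgeR adjusted p = 1.22e-06, 0.00136 and 1.08e-06). None of these 3 passed with level-dependent offsets (edgeR adjusted p = 0.511, 0.823 and 0.247), where the sign of Ipo8 turned, and Ipo8 was also lost with library totals (edgeR adjusted p = 0.396).

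Ipo13, which carries cargo in both directions, averaged 87.9 ± 4.05 CPM in treated and 87.9 ± 2.87 CPM in control libraries and did not pass (log2 fold change -0.0022 ± 0.036, edgeR adjusted p = 0.964), with a sign that depended on the scaling. Tnpo2 (ENSMUSG00000031691), a close relative of Tnpo1, measured 135, 131 and 137 CPM in treated libraries 1 to 3, against 129, 125 and 126 CPM in control libraries 1 to 3. Every treated library lay above every control, by a small amount (log2 fold change 0.084 ± 0.027, edgeR adjusted p = 0.0130). Its log2 fold change was 0.16 with library totals and 0.18 with offsets that depend on level. The call was lost with no filter and without treated replicate 3 or control replicate 2 (edgeR adjusted p = 0.0579, 0.0782 and 0.0624). It shares 10.6% of its exonic bases with the noncoding gene A230103J11Rik on the other strand, which had a mean of 14 reads.

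All 6 exportins were lower, with a median log2 fold change of -0.17. Xpo5 (ENSMUSG00000067150), the exporter of precursor microRNAs, measured 181, 178 and 196 CPM in treated libraries 1 to 3, against 253, 249.7 and 249.7 CPM in control libraries 1 to 3 (log2 fold change -0.44 ± 0.030, edgeR adjusted p = 2.15e-11), and fell most. Xpo1 (ENSMUSG00000020290), the main exporter of proteins with a leucine-rich export signal, measured 363, 376 and 371 CPM in treated libraries 1 to 3, against 409.7, 411 and 407 CPM in control libraries 1 to 3 (log2 fold change -0.14 ± 0.022, edgeR adjusted p = 7.13e-06). The groups were apart in both genes, but Xpo1 did not pass with level-dependent offsets (log2 fold change -0.0063, edgeR adjusted p = 0.832). Xpo4 fell by 0.29, the transfer RNA exporter gene Xpot by 0.18, Xpo7 by 0.15 and the actin exporter gene Xpo6 by 0.086 on the log2 scale. With level-dependent offsets Xpot, Xpo7 and Xpo6 did not pass (edgeR adjusted p = 0.0541, 0.146 and 0.745) and the sign of Xpo6 turned. Xpo7 and Xpo6 were also lost with library totals (edgeR adjusted p = 0.0618 and 0.823), and Xpo6 without control replicate 1 or 2 (edgeR adjusted p = 0.108 and 0.0536).

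Under library totals 7 of the calls for lower genes kept their direction and passed, with log2 fold changes more than 1.5 times smaller: Ipo7 at -0.079, Tnpo1 at -0.088, Tnpo3 at -0.16, Kpna1 at -0.085, Nup98 at -0.14, Xpo1 at -0.066 and Xpot at -0.11.

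Ratios between members within a library do not depend on any single scaling factor per library, such as TMM factors or library totals. They would change with level-dependent offsets. For 7 pairs, chosen after their values were seen, ratios were computed from CPM per kilobase with no test. Tnpo1 over Tnpo2 was 1.38, 1.41 and 1.35 in treated libraries 1 to 3, against 1.64, 1.66 and 1.63 in control libraries 1 to 3. Kpnb1 over Xpo1 was 1.75 ± 0.0460 in treated and 2.11 ± 0.0153 in control libraries (SD, n = 3 each). Ipo5 over Ipo7 was 2.08 ± 0.0269 in treated and 2.46 ± 0.0558 in control libraries, and Kpna2 over Kpna6 was 8.44 ± 0.290 in treated and 9.85 ± 0.109 in control libraries. Nup153 over Nup50 was 0.504 ± 0.0263 in treated and 0.386 ± 0.0249 in control libraries. Nup205 over its paralogue Nup188 was 1.98 ± 0.0196 in treated and 2.09 ± 0.0293 in control libraries. In these 6 pairs the groups did not overlap, whereas Ipo7 over its paralogue Ipo8, at 3.05 ± 0.0324 in treated and 3.16 ± 0.0710 in control libraries, overlapped. As the pairs were chosen with their values known, this count does not tell how often other pairs of genes overlap.

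Partners of these genes that carry other names were also mostly lower. For comparison, 27.9% of all tested genes were lower, and 41.9% of protein-coding genes averaging 10 CPM or more. Counts for these pathway lists were made with TMM factors only. Of 11 tested pore proteins outside the naming rule 8, or 72.7%, were lower and 3 did not pass, with a median log2 fold change of -0.23. Ndc1, a membrane anchor of the pore, fell by 0.35, the RNA export factor gene Rae1 by 0.34, and the Y complex genes Sec13 and Seh1l by 0.32 and 0.29. Those that did not pass were Pom121, Ranbp2 and Nupl2, with log2 fold changes of -0.026, -0.057 and -0.053. Of 10 tested genes of the Ran cycle and its cofactors 8, or 80%, were lower and 2 did not pass, with a median of -0.28. Ran, the GTPase that gives transport its direction, averaged 708 ± 12.1 CPM in treated and 1082 ± 7.39 CPM in control libraries (log2 fold change -0.61 ± 0.018, edgeR adjusted p = 1.13e-17). Its cofactor gene Ranbp1 averaged 67.0 ± 0.718 CPM in treated and 100.3 ± 1.16 CPM in control libraries (log2 fold change -0.58 ± 0.031, edgeR adjusted p = 3.24e-13). Rcc1, which loads Ran with GTP, fell by 0.47, Cse1l, which returns importin alpha to the cytoplasm, by 0.44 and Ranbp3, a cofactor of Xpo1, by 0.34. Rangap1, which stimulates GTP hydrolysis by Ran, had a log2 fold change of -0.044 and did not pass (edgeR adjusted p = 0.112).

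Of 20 mRNA export genes 14, or 70%, were lower and 6 did not pass, with a median log2 fold change of -0.20. The export adaptor gene Alyref fell by 0.49, the TREX-2 subunit gene Pcid2 by 0.47, the THO subunit gene Thoc5 by 0.43 and the helicase gene Ddx39b by 0.36. Nxf1, the mRNA export receptor, had a log2 fold change of 0.035 and did not pass (edgeR adjusted p = 0.3004). Of 16 nuclear envelope and lamina genes 7 were lower, 4 higher and 5 did not pass, with a median of -0.037. Those shares, 43.8% lower and 25% higher, lie close to the 41.9% lower and 25.5% higher among protein-coding genes averaging 10 CPM or more. The B-type lamin genes Lmnb2 and Lmnb1 fell by 0.38 and 0.36, Banf1, a chromatin binding protein of the envelope, by 0.43 and the lamina protein gene Tmpo by 0.25. Sun2, which links the lamina to the cytoskeleton, averaged 79.7 ± 0.740 CPM in treated and 56.0 ± 3.29 CPM in control libraries and rose (log2 fold change 0.51 ± 0.039, edgeR adjusted p = 1.85e-10). The other 3 that rose were Syne3 and Syne1, which encode the outer membrane partners of SUN proteins, by 0.31 and 0.21, and the inner membrane protein gene Lemd3, by 0.19.

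**Figure D5:**
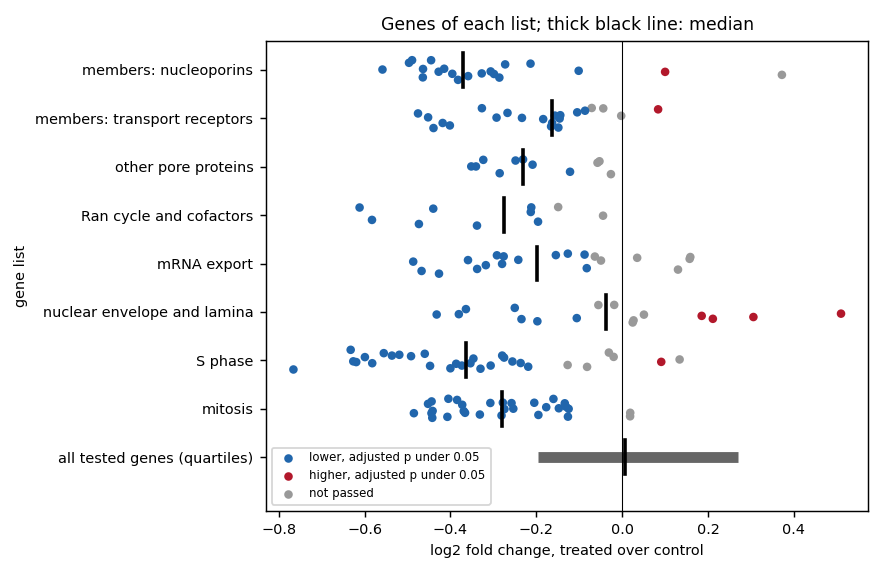
Each point is the log2 fold change, treated over control, of 1 tested gene of the list at the left, blue where lower, red where higher and grey where it did not pass; thick black lines are medians and the grey bar spans the quartiles of all tested genes. Medians run from -0.37 for nucleoporins to -0.037 for the nuclear envelope, and the 4 envelope genes called higher lie to the right of 0.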

How the data were processed

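Polyadenylated RNA was sequenced in 6 libraries. The deposited values are raw read counts per Ensembl gene, made with fastp 0.22.0, HISAT2 2.2.0 and featureCounts 2.0.6, per the submitters' processing notes, which list hg38 and mm39 with no role. Which annotation was counted, and whether strand was used, is not given in the sources used here; genes that overlap on either strand are uncertain. All columns were matched to samples by library name. Symbols, biotypes and exonic lengths came from GENCODE M21, which named 26531 of 27067 identifiers. Of the 43 genes that the naming rule found, 12 share exonic bases with another gene of the table, 1 of them over 10% of its length. That count leaves out partners with no row in the table, such as Gm49378, which overlaps 55.3% of Ipo4 on the same strand. Kpna2 has a pseudogene copy, Kpna2-ps, that has no row in the table used here, so reads shared with it are uncertain.

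Genes passing filterByExpr (minimum count 10, minimum total 15) were compared by the two-sided quasi-likelihood F test of edgeR 4.0.16 in R 4.3.3, with TMM factors, group as the term and adjustment over 15150 genes. The biological coefficient of variation was 3.70%. SE is the absolute log2 fold change over the square root of F. CPM per kilobase divides TMM-scaled CPM by exonic length. The fit was also run on simulated counts in which few genes changed, evenly up and down, with the same dispersion for all genes. In these data 53.0% of tested genes passed, so that simulation cannot show how the scaling or the test holds here. Level-dependent offsets came from cyclic loess (limma 3.58.1) on log2 counts with a small pseudocount, where log2 CPM had been planned, so that library size was part of the offset, and DESeq2 1.42.0 was an alternative. The members, roles and lists were chosen with earlier results of these data known. Library values are printed for called members changed by at least 0.3 in log2, for the importin alpha genes, Kpnb1, Xpo1 and the 3 highest members; those of Nup153 and Tnpo2 were added after their values were seen, as the members called higher. From each pathway list up to 4 called genes with the smallest p and 4 with the largest change are named, and others were named after their values were seen. For the marker lists sums stand in place of such genes.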

Additional observations from a re-analysis of the deposited data

How the results depend on the processing

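The count of lower members, 36, was 31 with library totals, 27 with level-dependent offsets, 37 with no filter and 36 under the other settings that keep all libraries, and 35 to 37 when 1 library was left out; the call gained with no filter and without treated replicate 3 was Kpna3. Of all tested genes 27.9% were lower, against 20.1% with library totals, 25.2% with level-dependent offsets and 16.1% with no filter. That share was 25.6% to 32.4% under the other settings that keep all libraries, and 25.2% to 26.4% when 1 library was left out. The count of higher members, 2, was 1 with no filter and 0 to 2 when 1 library was left out, being 0 without treated replicate 3 or control replicate 2 and 1 without control replicate 3. The median log2 fold change of the members was -0.21 with library totals, -0.18 with level-dependent offsets, -0.27 with the filter at 1 CPM in 3 libraries, and -0.30 to -0.27 with 1 library left out. The members' median lay below that of all genes by 0.30 with TMM factors and with library totals (differences of -0.30), and by less with level-dependent offsets (a difference of -0.18). Signs turned for genes near 0. Ipo13 took log2 fold changes of 0.0031 with median-of-ratios factors, 0.076 with library totals, 0.075 with level-dependent offsets, 0.015 with the 1 CPM filter, 0.0058 with protein-coding genes, 0.0033 in DESeq2 and between -0.029 and 0.034 with 1 library left out. Kpna3 and Kpna6 took 0.0071 and 0.034 with library totals and 0.0076 and 0.047 with level-dependent offsets, where Ipo8 and Xpo6 took 0.0078 and 0.012. The cause of these differences was not tested. Deviations from the group mean had correlations of -0.014, -0.040 and 0.0080 between libraries that share a replicate number. Between libraries with unlike numbers they were -0.019 to 0.032. Correlations this small, from 3 libraries a group, cannot show whether the numbers pair the libraries, and the labels do not state it. With the replicate number as a block 36 members were lower and 2 higher, the median was -0.29, and 4257 genes were lower and 3804 higher in all. Depth limits only Nup210l, at about 1 CPM, and Kpna7.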

Other observations

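The identifier annotated as Nupl1 (ENSMUSG00000063895), the older symbol of Nup58, the third protein of the central channel trimer, had 0 counts in every treated library and 2 counts in control library 2, with 0 in the other controls. Its partner genes Nup62 and Nup54 had between 1164 and 5007 counts in every library. Whether reads of Nup58 were counted under another identifier was not examined.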
